A study of Mus musculus with 6 samples.

Results

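The 86 potassium channel genes described here were all genes of the count table whose symbols begin with Kcn, followed by family letters and a number. They were chosen by symbol alone, out of 17418 genes in the table, and each of them had at least 1 UMI in cells not marked as doublets. By role they fell into 37 pore subunits of voltage-gated (Kv) channels, 8 pore subunits of calcium- or sodium-activated channels, 15 inward rectifiers, 10 two-pore channels and 16 auxiliary subunits. Single cells were taken from the cortex on postnatal day 5 (P5) of 3 wild type (WT) mice (FVB.129P2-Pde6b+ Tyrc-ch/AntJ) and 3 knockout (*Fmr1*-KO) mice, which carry the allele Fmr1tm1Cgr/J on FVB.129P2-Pde6b+ Tyrc-ch. *Fmr1* encodes the RNA-binding protein FMRP, whose loss causes Fragile X syndrome, and the knockout was present in every cell of the animal. Both groups shared the Pde6b+ and Tyrc-ch alleles, both hemispheres were dissociated with papain, and pups of both sexes were used. WT 1, *Fmr1*-KO 1 and *Fmr1*-KO 2 were collected with bead version 2, and WT 2, WT 3 and *Fmr1*-KO 3 with bead version 3.8. The comparison of interest was whether channel transcripts differed between the genotypes, within cell types that use very different sets of them.

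Potassium channels let potassium ions leave or enter the cell, set the resting potential and end the action potential. Kv channels open on depolarization, calcium-activated channels couple firing to calcium entry, inward rectifiers hold the membrane near the potassium equilibrium potential, and two-pore channels carry background currents. In the cortex neurons use them to shape firing, astrocytes to take up potassium released by neurons, and mural cells of vessels to control vascular tone.

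The count table held 18393 cell records from 17 libraries, with 8070039 to 20677233 UMIs per mouse and a median of 1688 to 4897 UMIs per record. A UMI is a molecular tag on 1 captured transcript, so copies made by PCR were counted once. The 1113 records marked as doublets were left out, and levels are given as CPM, the UMIs of a gene over all UMIs of the summed cells of 1 mouse and subtype, scaled to a sum of 1000000. Libraries of 1 mouse shared barcodes: 4561 records, or 24.8%, had a barcode found in another library of the same mouse, from 6.09% in *Fmr1*-KO 1 to 41.4% in *Fmr1*-KO 2. In 90.9% of the 1975 shared barcodes all records had the same subtype. Cell numbers are therefore numbers of records, and all comparisons used sums per mouse. Across mice 341 barcodes were shared. *Fmr1* stood at 68.4, 74.1 and 72.5 CPM in the WT mice and at 17.2, 19.9 and 16.1 CPM in the *Fmr1*-KO mice, so the mice matched their labels. Of 42 markers, 38 were highest in the subtype of their name, and the exceptions included *Neurod2* and *Neurod6* (highest in SVZ cells) and *Cspg4* (pericytes).

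The channel genes took very different shares of the transcripts of each cell type. Their summed level was highest in Cajal-Retzius (CR) cells with 2431 ± 196 CPM (SD, n = 5 mice) and in excitatory neurons with 2382 ± 179 CPM (n = 6). The first cluster of oligodendrocyte precursor cells (OPC_1) reached 2140 ± 75.0 CPM and the main astrocyte cluster (Astrocytes_1) 1862 ± 244 CPM. Microglia were lowest with 382 ± 60.9 CPM. CR cells and excitatory neurons did not differ beyond their spread, and interneurons stood at 1173 ± 174 CPM. Subtypes were defined by clustering the same counts, so these levels are a description and were not tested. A UMI level also cannot tell fewer transcripts from fewer cells of a finer type.

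**Figure D1:**
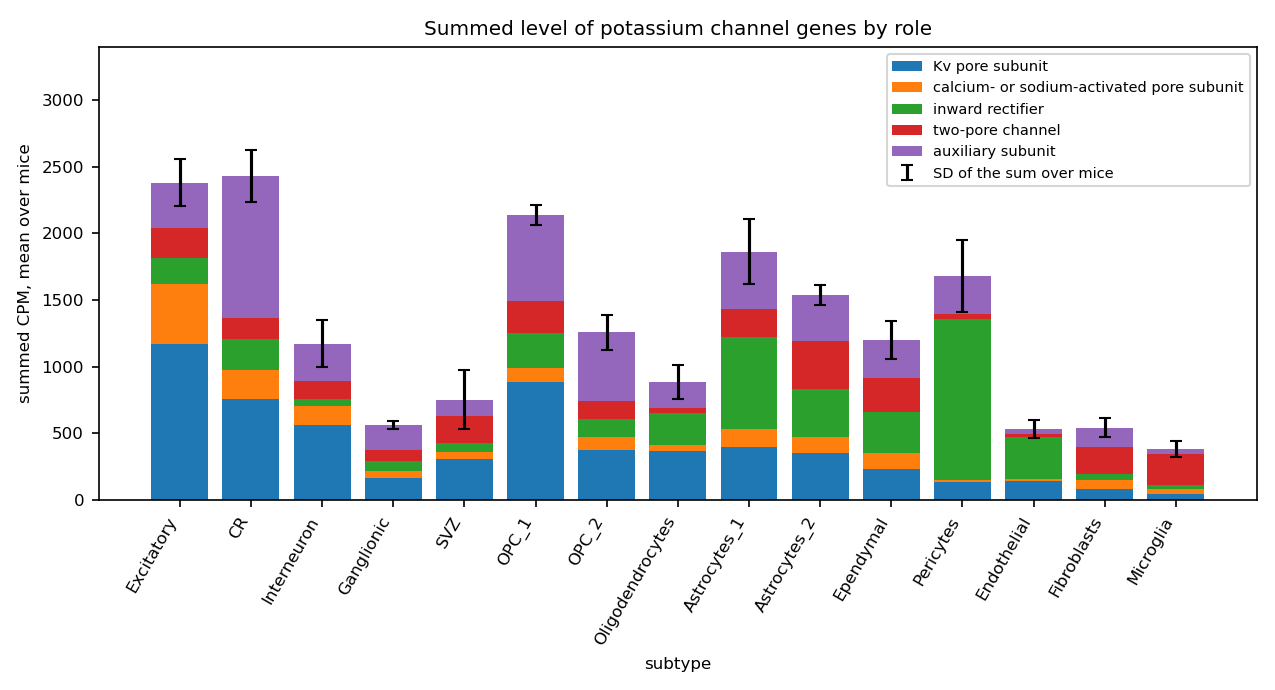
Summed CPM of the potassium channel genes in each of 15 subtypes with values in at least 3 mice, stacked by role, as means over mice, with the SD of the whole sum over mice as the error bar. Kv pore subunits make up the largest block in excitatory neurons (1170 CPM), auxiliary subunits in CR cells (1067 CPM) and inward rectifiers in pericytes (1204 CPM) and in Astrocytes_1 (693 CPM).

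Of the 86 genes, 37 reached a mean of 50 CPM in at least 1 of the 15 subtypes, and 19 stayed below 10 CPM in all of them. The 37 had their highest mean in excitatory neurons (9 genes), CR cells (8), Astrocytes_1 (5), pericytes (3), microglia (3), OPC_1 (3), OPC_2 (2) and, with 1 gene each, Astrocytes_2, endothelial cells, ependymal cells and interneurons. Over the mice, 12 of the 37 did not overlap in level between the highest and the next subtype. The same share was not computed over all genes, so this count shows nothing particular to channel genes. The genes closest to the limit of 50 CPM were *Kcnk12* (51.8 ± 19.5 CPM in microglia) inside it and *Kcnj11* (49.5 ± 36.9 CPM in 4 mice, from 10 UMIs in SVZ cells) outside it.

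**Figure D2:**
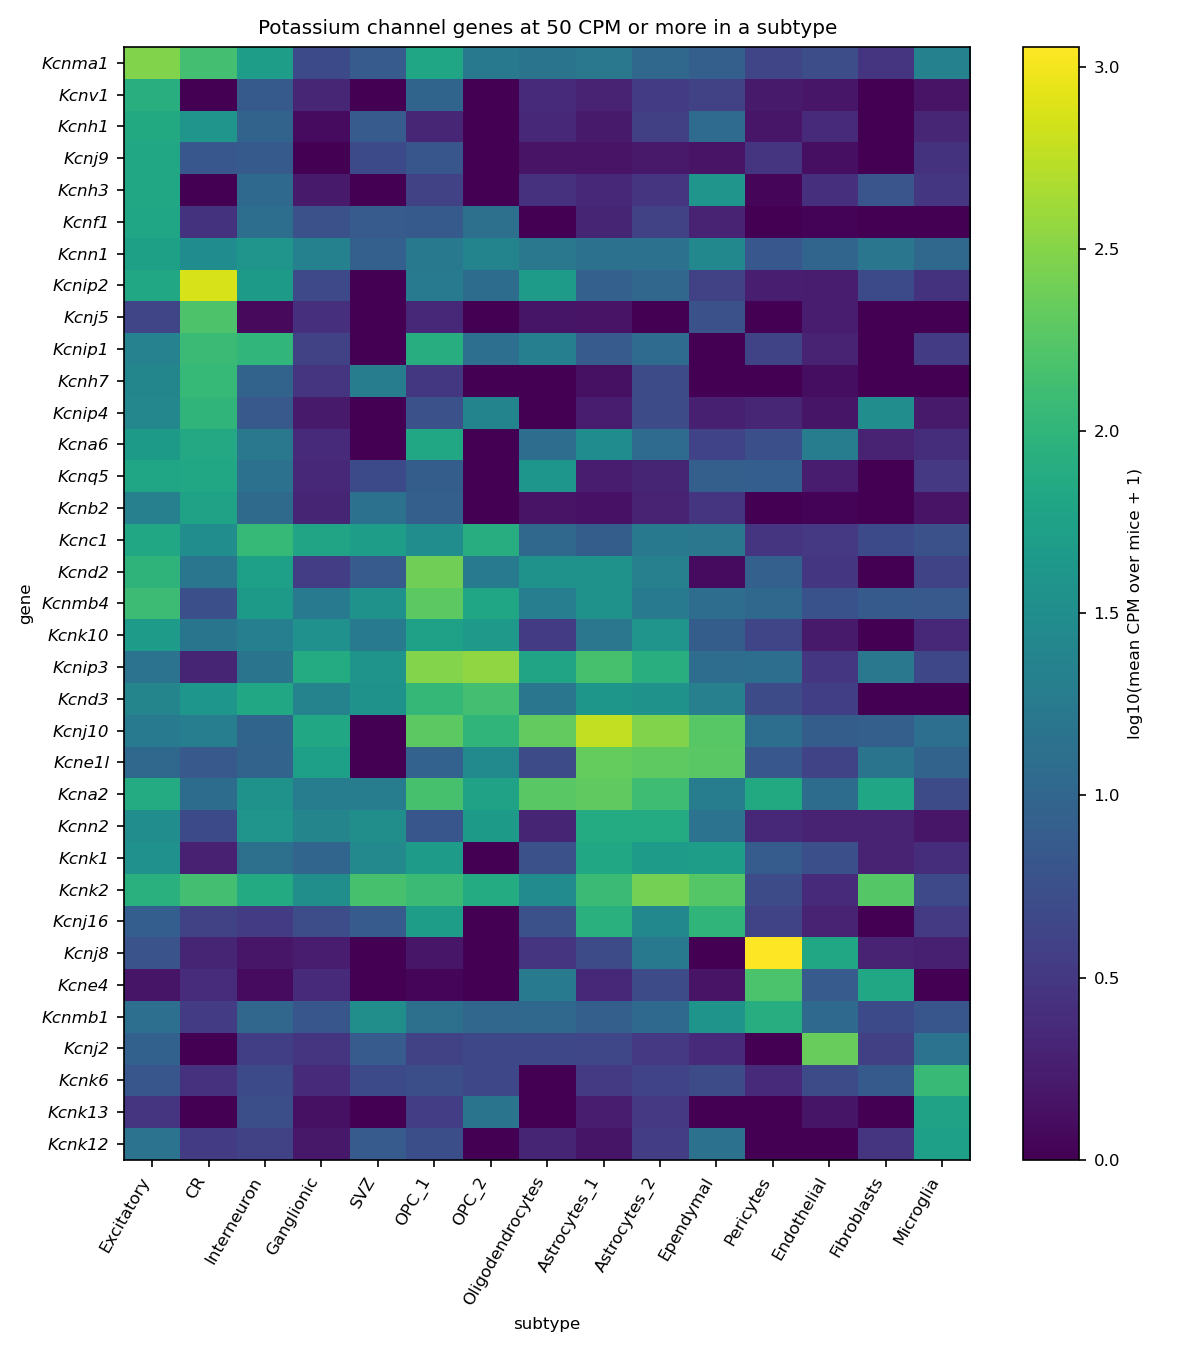
Mean CPM over mice, on a log10 scale after adding 1, of 35 of the potassium channel genes that reach 50 CPM in a subtype (rows) in 15 subtypes (columns). Rows are ordered by the subtype with the highest mean, and the brightest cells are *Kcnj8* in pericytes (1132 CPM), *Kcnip2* in CR cells (739 CPM) and *Kcnj10* in Astrocytes_1 (589 CPM).

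Among Kv pore subunits, excitatory neurons were highest for several silent and ether-a-go-go family members. The silent subunits *Kcnv1* and *Kcnf1*, which form no channel on their own, were nearly restricted to these cells. *Kcnv1* reached 83.7 ± 20.9 CPM in excitatory neurons against 8.55 ± 4.28 CPM in OPC_1 cells, the next subtype, and *Kcnf1* 63.7 ± 25.5 against 12.3 ± 11.7 CPM in OPC_2 cells. The ether-a-go-go family members *Kcnh1* and *Kcnh3* stood at 70.2 ± 10.8 and 64.2 ± 9.25 CPM in excitatory neurons. *Kcnq3*, which contributes to currents that limit repetitive firing, was at 7.03 ± 4.08 CPM there, its highest subtype. An exon of *Kcnh3* overlaps one of *Mcrs1* on the opposite strand, one of *Kcnh7* overlaps *Gca* and one of *Kcnj13* overlaps *Gigyf2*, so their counts are uncertain where strand was not used.

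Interneurons were highest for 1 gene of this level, *Kcnc1*, the Kv3.1 channel of fast-firing cells. Its level was 113, 131 and 129 CPM in the WT mice and 92.8, 68.9 and 123 CPM in the *Fmr1*-KO mice, against 78.3 ± 44.1 CPM in OPC_2 cells and 64.4 CPM in excitatory neurons. The groups of mice overlapped between these subtypes. The related *Kcnc2* was at 40.8 ± 17.5 CPM in CR cells.

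Precursor cells held the highest levels of *Kcnd2* and *Kcnd3*, whose A-type currents inactivate quickly. In OPC_1 cells *Kcnd2*, which encodes Kv4.2, was at 217, 232 and 303 CPM in the WT mice and at 272, 227 and 238 CPM in the *Fmr1*-KO mice. Every mouse was above excitatory neurons, the next subtype with 96.2 ± 15.9 CPM. *Kcnd3* was at 138 ± 71.9 CPM in OPC_2 cells (n = 5) and at 108 ± 15.4 CPM in OPC_1 cells, which did not differ beyond their spread. *Kcna2*, a Kv1 channel known from axons, was highest outside neurons: 201 ± 89.2 CPM in Astrocytes_1, 187 ± 58.6 CPM in oligodendrocytes and 144 ± 28.9 CPM in OPC_1 cells, against 74.9 ± 15.1 CPM in excitatory neurons. Astrocytes_1 exceeded oligodendrocytes in 3 of 6 mice, so these neighbours were not separated. *Kcna1* was highest in OPC_1 cells at 40.0 ± 10.9 CPM. CR cells led for *Kcnh7* (110.1 ± 37.6 CPM), *Kcna6* (69.5 ± 27.5 CPM), *Kcnq5* (65.6 ± 21.0 CPM) and *Kcnb2* (55.8 ± 35.2 CPM), of which only *Kcnh7* did not overlap with the next subtype.

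Endothelial cells had a Kv set at lower levels, with *Kcnq1* at 36.6 ± 12.7 CPM, *Kcna5* at 26.2 ± 20.0 CPM and the silent subunit *Kcng2* at 22.3 ± 8.29 CPM, and in each case the next subtype stood below 6 CPM. Other Kv genes were between 10 and 50 CPM (*Kcna3*, *Kcna4*, *Kcnc4*, *Kcnh2*, *Kcnh4*, *Kcnh8*, *Kcns1* and *Kcns2*) or below 10 CPM in every subtype. These low genes were *Kcnq3*, *Kcnh5*, *Kcnh6*, *Kcnd1*, *Kcns3*, *Kcng1*, *Kcng4* and *Kcna7*.

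*Kcnma1*, the pore of the large-conductance BK channel that opens on calcium and depolarization together, had the highest mean of any channel gene of excitatory neurons. Its level was 343, 231 and 235 CPM in the WT mice and 312, 429 and 227 CPM in the *Fmr1*-KO mice. CR cells followed with 137 ± 68.2 CPM and OPC_1 cells with 61.9 ± 9.37 CPM, and no mouse of CR cells reached the excitatory range. *Kcnmb4*, the neuronal BK subunit to which FMRP binds as a protein, was highest in OPC_1 cells instead, with 169.5, 239 and 214 CPM in the WT and 128, 160 and 232 CPM in the *Fmr1*-KO mice. Excitatory neurons followed with 122 ± 40.3 CPM, below OPC_1 cells in 6 of 6 mice. The small-conductance genes differed in place: *Kcnn1* was at 54.1 ± 24.6 CPM in excitatory neurons, *Kcnn3* at 48.0 ± 31.5 CPM in ependymal cells and *Kcnn4* at 24.0 ± 9.06 CPM in ependymal cells. *Kcnn2* was at 74.3 ± 47.9 CPM in Astrocytes_1 and 73.8 ± 53.6 CPM in Astrocytes_2. The sodium-activated *Kcnt1*, whose channel is bound by FMRP, was at 37.3 ± 13.7 CPM in CR cells and at 31.2 CPM in excitatory neurons, *Kcnt2* was at 30.1 ± 17.0 CPM in excitatory neurons, and *Kcnu1* stayed below 10 CPM.

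The inward rectifiers with the highest levels lay in pericytes, astrocytes and endothelial cells, while *Kcnj5*, *Kcnj9* and *Kcnj4* were highest in neurons. *Kcnj10*, which encodes Kir4.1, the main potassium uptake channel of astrocytes, was at 357, 756 and 838 CPM in the WT mice and at 467, 433 and 686 CPM in the *Fmr1*-KO mice in Astrocytes_1. It was lower but present in Astrocytes_2 (299 ± 56.8 CPM), oligodendrocytes (211 ± 77.1 CPM), OPC_1 cells (189 ± 49.3 CPM) and ependymal cells (183 ± 104 CPM), which overlapped with each other. In microglia it stood at 11.9 ± 5.98 CPM, 2.02% of its level in Astrocytes_1. The astrocyte markers *Aqp4*, *Slc1a3*, *Gja1* and *Aldoc* stood in microglia at 1.05% to 1.77% of their Astrocytes_1 level. Its partner *Kcnj16*, encoding Kir5.1, was at 99.8 ± 34.4 CPM in ependymal cells and 86.4 ± 12.6 CPM in Astrocytes_1, with overlapping mice, but at only 4.65 ± 4.34 CPM in oligodendrocytes.

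*Kcnj8*, the pore Kir6.1 of the ATP-sensitive channel of mural cells, had the highest level of all. In pericytes it was at 1192, 1159 and 1186 CPM in the WT mice and at 822, 1088 and 1347 CPM in the *Fmr1*-KO mice. *Abcc9*, the sulfonylurea receptor that completes this channel, was at 2250, 2519 and 2176 CPM in the WT and 1696, 2262 and 2575 CPM in the *Fmr1*-KO mice. Endothelial cells were next for *Kcnj8* with 67.0 ± 47.4 CPM, 5.91% of the pericyte level. *Abcc9* there stood at 5.77%, and the pericyte markers *Vtn*, *Pdgfrb* and *Rgs5* stood at 4.83%, 7.31% and 9.45% of theirs. The part of pericyte RNA in the endothelial value was not tested. The other channel of this kind, *Kcnj11* with *Abcc8*, was low, with *Abcc8* at 12.9 ± 5.30 CPM in excitatory neurons. Endothelial cells had *Kcnj2*, the strong rectifier Kir2.1, at 243, 187 and 226 CPM in the WT and 287, 219 and 151 CPM in the *Fmr1*-KO mice, while the next subtype, microglia, stood at 13.8 ± 8.78 CPM and pericytes were at 0 UMIs in all 6 mice. The G-protein-gated subunits separated among neurons: *Kcnj9* was at 67.2 ± 21.7 CPM in excitatory neurons and 6.29 ± 4.90 CPM in interneurons, and *Kcnj5* was at 159 ± 17.9 CPM in CR cells and 4.70 ± 5.33 CPM in ependymal cells, the next subtype. Further rectifiers were *Kcnj4* (45.2 ± 7.34 CPM, excitatory neurons), *Kcnj12* (44.3 ± 13.5 CPM, pericytes), *Kcnj13* (31.1 ± 16.2 CPM, fibroblasts, uncertain for the overlap with *Gigyf2*) and *Kcnj15* (12.4 ± 4.50 CPM, endothelial cells). *Kcnj1*, *Kcnj3*, *Kcnj6* and *Kcnj14* stayed below 10 CPM.

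Some of these genes are neighbours on the chromosome, and their start regions are printed because neighbours either shared a cell type or did not. In the GENCODE annotation of GRCm38 (mm10), *Kcnj9* and *Kcnj10* lie on chromosome 1 on opposite strands with 11892 bases between their starts, yet 1 was highest in excitatory neurons and the other in astrocytes. *Kcnj16* and *Kcnj2* lie on chromosome 11 on the same strand, with 38.2 kb between the genes and 98131 bases between their starts. They differed likewise, the first in ependymal cells and astrocytes and the second in endothelial cells. *Kcnj8* and *Abcc9* lie on chromosome 6 on the same strand, with 16.2 kb between the genes and 130701 bases between their starts. Both were highest in pericytes. The windows below run 5′ to 3′ from 250 bases before to 50 bases after the RefSeq start (GRCm38.p6), with capitals on each match to the GC box GGGCGG, the CCAAT box CCAAT or the TATA box TATAAA on either strand. They lie at chr1:172329273-172329572 (minus strand) for *Kcnj9*, chr1:172340960-172341259 (plus strand) for *Kcnj10*, chr6:142571565-142571864 (minus strand) for *Kcnj8* and chr6:142702225-142702524 (minus strand) for *Abcc9*.
Kcnj9: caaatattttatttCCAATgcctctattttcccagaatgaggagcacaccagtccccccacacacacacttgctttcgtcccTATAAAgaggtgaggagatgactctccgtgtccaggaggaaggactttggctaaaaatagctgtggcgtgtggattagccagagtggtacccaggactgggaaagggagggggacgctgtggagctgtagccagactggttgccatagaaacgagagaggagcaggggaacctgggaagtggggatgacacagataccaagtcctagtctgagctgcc
Kcnj10: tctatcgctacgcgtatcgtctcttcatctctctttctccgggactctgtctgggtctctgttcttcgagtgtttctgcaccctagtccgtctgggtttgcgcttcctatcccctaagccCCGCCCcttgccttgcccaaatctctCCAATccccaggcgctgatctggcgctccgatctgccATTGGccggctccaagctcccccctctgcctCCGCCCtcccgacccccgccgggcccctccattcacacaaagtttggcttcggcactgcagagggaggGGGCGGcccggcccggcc
Kcnj8: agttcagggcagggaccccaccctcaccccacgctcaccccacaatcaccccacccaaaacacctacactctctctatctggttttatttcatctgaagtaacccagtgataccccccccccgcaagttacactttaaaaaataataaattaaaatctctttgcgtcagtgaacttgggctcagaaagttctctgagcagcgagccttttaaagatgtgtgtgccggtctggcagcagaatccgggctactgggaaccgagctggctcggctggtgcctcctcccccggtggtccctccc
Abcc9: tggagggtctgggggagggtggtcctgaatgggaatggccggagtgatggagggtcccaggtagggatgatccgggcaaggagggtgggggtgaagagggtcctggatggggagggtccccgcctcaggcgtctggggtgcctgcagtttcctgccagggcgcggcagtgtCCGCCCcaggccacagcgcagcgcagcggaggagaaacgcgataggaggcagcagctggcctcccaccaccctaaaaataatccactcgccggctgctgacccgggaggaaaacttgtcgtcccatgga
The neuronal *Kcnj9* window held 1 TATA box, 1 CCAAT box and 5 CpG dinucleotides at a GC content of 52.3%. The glial *Kcnj10* window held 3 GC boxes, 2 CCAAT boxes, no TATA box and 21 CpG dinucleotides at 63.7% GC. The 2 pericyte genes were unlike each other, since *Kcnj8* held none of the 3 motifs, with 9 CpG dinucleotides and 53.3% GC, and *Abcc9* held 1 GC box, with 16 CpG dinucleotides and 65.7% GC. Over all 32851 windows of this length, 35.7% held a GC box, 37.4% a CCAAT box and 13.6% a TATA box, with a median of 7 CpG dinucleotides and 52.7% GC. These matches are a description of the letters only.

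Of the two-pore channels, 3 were highest in microglia. *Kcnk6* was at 98.0, 97.1 and 126 CPM in the WT and at 101, 131 and 120.1 CPM in the *Fmr1*-KO mice in microglia, against 6.40 ± 8.75 CPM in fibroblasts, the next subtype. *Kcnk13*, the THIK-1 channel of microglial surveillance, was at 57.1 ± 23.4 CPM and *Kcnk12* at 51.8 ± 19.5 CPM. The macrophage cluster named for high *Ms4a7*, with 45 records and too few mice to order, held 21 UMIs of *Kcnk6*, or 189 CPM with an exact Poisson interval of 117 to 289 CPM, and 2 UMIs of *Kcnk13*. That interval covers counting error only. *Kcnk2*, the mechanosensitive TREK-1, was spread over many types, with 258 ± 57.3 CPM in Astrocytes_2, 176 ± 40.1 CPM in fibroblasts, 174 ± 42.9 CPM in ependymal cells, 120.3 CPM in Astrocytes_1 and 85.8 ± 14.2 CPM in excitatory neurons. *Kcnk1* was at 66.5 ± 39.5 CPM in Astrocytes_1 and *Kcnk10* at 54.4 ± 13.7 CPM in OPC_1 cells. *Kcnk3* reached 31.7 ± 6.29 CPM in excitatory neurons and *Kcnk5* 17.3 ± 17.4 CPM in fibroblasts, while *Kcnk4* and *Kcnk7* stayed below 10 CPM.

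Among auxiliary subunits CR cells stood apart. *Kcnip2*, a calcium-binding partner of Kv4 channels, was at 721 and 793 CPM in the WT and at 734, 656 and 792 CPM in the *Fmr1*-KO mice in CR cells, where WT 2 had too few cells. That was 11.2 times its level in excitatory neurons (66.1 ± 26.7 CPM), while the Kv4 pore gene *Kcnd2* was low in CR cells (14.8 ± 11.8 CPM). *Kcnip1* was at 120.1 ± 30.6 CPM in CR cells and 100.5 ± 55.7 CPM in interneurons, with overlapping mice, and *Kcnip4* at 98.4 ± 51.0 CPM in CR cells. *Kcnip3* was highest in both precursor clusters, as was *Kcnd3*: 336, 294 and 295 CPM in the WT and 299.8, 285 and 311 CPM in the *Fmr1*-KO mice in OPC_1 cells, and 348 ± 91.7 CPM in OPC_2 cells. Astrocytes_1 followed with 146 ± 43.8 CPM of *Kcnip3*. For *Kcnd2*, only OPC_1 cells were high, and OPC_2 cells stood below interneurons (52.5 ± 25.5 CPM). The further Kv4 partner *Dpp6* was likewise higher in OPC_1 cells (193 ± 23.9 CPM) than in excitatory neurons (136 ± 35.9 CPM), while *Dpp10* was at 78.8 ± 8.27 and 112 ± 18.2 CPM. *Kcne1l* was at 214 ± 18.7 CPM in Astrocytes_1, 195 ± 55.4 CPM in Astrocytes_2 and 188 ± 69.5 CPM in ependymal cells. Pericytes were highest for *Kcne4* (152 ± 49.5 CPM) and for *Kcnmb1*, the smooth muscle BK subunit (78.1 ± 26.4 CPM). *Kcnmb2*, *Kcnab1*, *Kcnab2* and *Kcnab3* stood between 10 and 50 CPM, and *Kcne1*, *Kcne2*, *Kcne3* and *Kcnmb3* below 10 CPM.

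**Figure D3:**
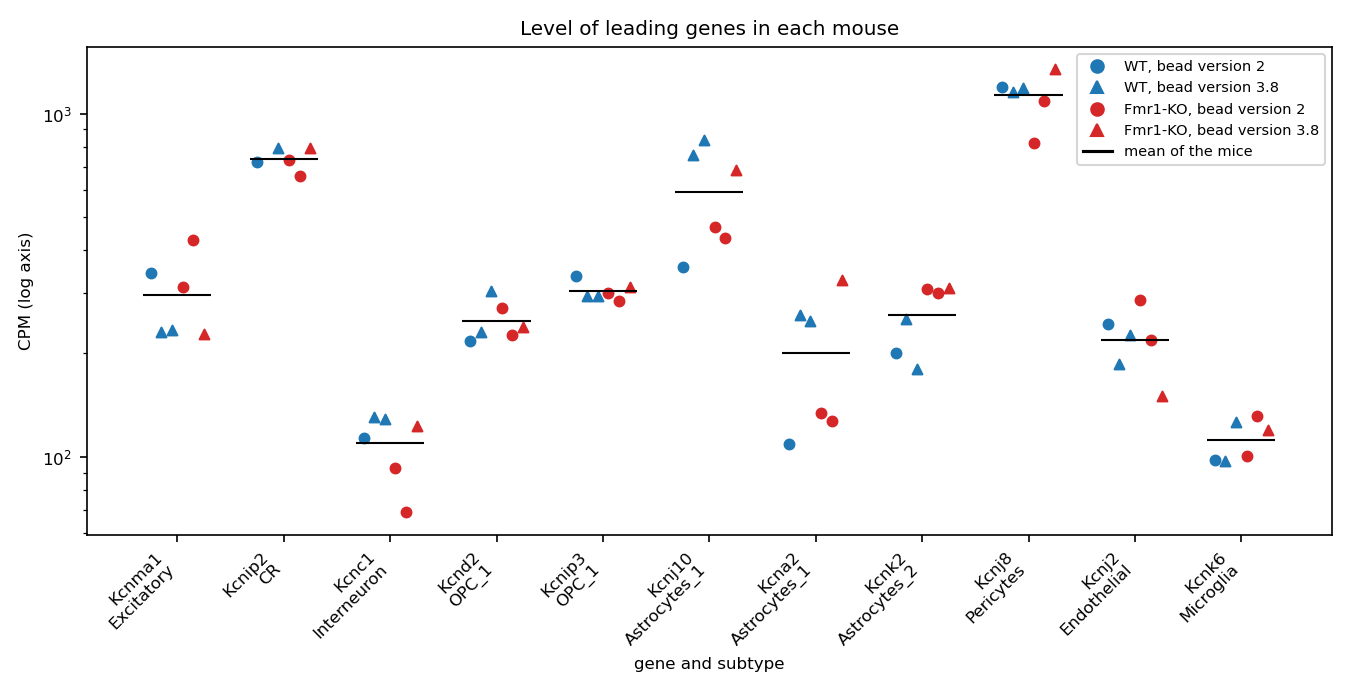
CPM of 11 gene and subtype pairs in each mouse on a log axis, with colour for genotype, symbol for bead version and a bar at the mean of the mice. *Kcnj10* and *Kcna2* in Astrocytes_1 separate by bead version, while *Kcnip2*, *Kcnip3* and *Kcnd2* lie close together over all mice.

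Many of these levels moved with the bead version. Of the 27 genes at 50 CPM with values in all 6 mice at their highest subtype, 8 were higher and 5 lower in every version 3.8 mouse than in every version 2 mouse. In Astrocytes_1 *Kcnj10* averaged 419 ± 56.3 CPM (SD, n = 3) with version 2 and 760 ± 76.1 CPM with version 3.8, *Kcna2* 124 ± 13.2 and 278 ± 42.5 CPM, and *Kcnk1* 35.6 ± 4.72 and 97.5 ± 31.7 CPM. In excitatory neurons *Kcnma1* went the other way, with 361 ± 61.0 and 231 ± 3.77 CPM, as did *Kcnh1* with 78.1 ± 6.94 and 62.4 ± 7.86 CPM. The channel genes were not alone in this. Over all genes at 50 CPM the versions did not overlap in 55.1% of 3964 genes in Astrocytes_1 and in 56.4% of 4470 genes in excitatory neurons. For channel genes at that level in the same subtypes it was 87.5% of 8 and 68.8% of 16 genes. Bead version, collection and the mice themselves cannot be told apart. The version was therefore a term in each genotype fit within a cell type.

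No potassium channel gene differed between *Fmr1*-KO and WT mice at the threshold used, in any of the 11 cell types or groups tested. Sums per mouse were fitted with edgeR for the genes detected in 15% or more of the cells, and a gene was called at an adjusted p (FDR) under 0.01 with a log2 change of 0.20 or more in size. This filter left few channel genes: 11 in excitatory neurons, 11 in OPC_1, 9 in Astrocytes_1, 7 in Astrocytes_2, 6 in all neurons, 4 in pericytes, 3 in ganglionic cells, 3 in oligodendrocytes, 2 in interneurons, 1 in endothelial cells and 1 in microglia. Of them 0 were called by edgeR and 0 by DESeq2, and 5 had an unadjusted p under 0.05 by edgeR. Of all genes tested the called share was 0% in neurons, excitatory neurons, interneurons, Astrocytes_2, endothelial cells, pericytes and microglia. It was 0.0499% in ganglionic cells, 0.0208% in Astrocytes_1, 0.0245% in OPC_1 cells and 0.0423% in oligodendrocytes. Of all genes tested, the share at an unadjusted p under 0.05 was 16.4% in neurons, 11% in endothelial cells, 6.31% in ganglionic cells, 4.53% in interneurons, 4.4% in oligodendrocytes, 4.24% in OPC_1 cells, 3.48% in excitatory neurons and 3.32% in microglia. Calls were thus rare for any gene, and the targeted *Fmr1* itself, lower by 2.15 on the log2 scale in Astrocytes_1 (edgeR adjusted p = 8.47e-05), was one of them. With the filterByExpr filter of edgeR it differed by -1.52 in neurons (adjusted p = 0.066) and -1.29 in excitatory neurons (0.75). The differences were -1.80 in interneurons (0.10), -3.15 in pericytes (0.22) and -1.55 in microglia (0.997). They were -1.52 in ganglionic cells (0.18), -1.935 in Astrocytes_2 (0.063), -1.98 in endothelial cells (0.30) and -1.99 in oligodendrocytes (0.999). With this filter *Fmr1* was called only in Astrocytes_1 and OPC_1 cells (edgeR adjusted p = 4.12e-05 and 0.00115). Changes of that size could thus go uncalled in the other types and groups.

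Over all neurons summed the fitted values of the tested channel genes were below 0, while in excitatory neurons they stood on both sides of 0. All 6 tested genes had a fitted fold change below 0, with a median log2 fold change of -0.17, where 49.9% of all 3763 tested genes were below 0. Among them were *Kcnma1* (-0.35 ± 0.18, SE), *Kcnmb4* (-0.17 ± 0.14), *Kcnk2* (-0.16 ± 0.12) and *Kcnc1* (-0.07 ± 0.14), and none of the 6 passed an unadjusted p of 0.05, which 16.4% of all tested genes did. For *Kcnc1* the mean over mice went the other way, with 69.7 ± 10.5 CPM in *Fmr1*-KO and 64.5 ± 25.1 CPM in WT mice, and it was higher by 0.21 within version 3.8. *Kcnma1* stood at 181, 189 and 185 CPM in the WT and at 110.1, 188 and 138 CPM in the *Fmr1*-KO mice over all neurons. In excitatory neurons the same gene differed by 0.06 ± 0.16, and the 11 tested genes had a median of 0.12, with 7 higher and 4 lower, where 48.9% of all tested genes were below 0.

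With the filterByExpr filter of edgeR in place of the 15% rule, 59 channel genes were tested in neurons, of which 45 were lower and 14 higher, with a median of -0.23 where the median of all 11904 genes was -0.0032 and 50.4% of them were lower. At an unadjusted p under 0.05 were 6 of the 59, all lower, against 11.6% of all genes in either direction and 5.9% lower. They were *Kcnj4*, *Kcnip4*, *Kcnq3*, *Kcnk1*, *Kcnh3* and *Kcnc4*, and their lowest edgeR adjusted p was 0.27. *Kcnq3* was at 7.42, 5.998 and 7.18 CPM in the WT and at 3.06, 0.843 and 3.06 CPM in the *Fmr1*-KO mice, a difference of -1.56 ± 0.52 (SE). These counts are low: excitatory neurons, its highest subtype, held 60 UMIs of it over 6 mice. It did not pass the wider filter there and was not tested. In excitatory neurons 56 channel genes were tested, of which 29 were lower and 27 higher, with a median of -0.0038 where 50.2% of all genes were lower, and 3 were at an unadjusted p under 0.05 where 3.33% of all genes were.

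The shares of neuron subtypes differed between the mice. Excitatory neurons, with the highest summed channel level but for CR cells, made up 56.8%, 75.3% and 49.5% of neuronal records in WT and 42.0%, 48.6% and 35.6% in *Fmr1*-KO mice. Ganglionic cells, with a summed channel level of 563 ± 28.6 CPM, made up 10.95%, 13.2% and 12.3% in WT and 18.5%, 23.5% and 22.2% in *Fmr1*-KO mice. Neither set of shares overlapped between the genotypes. The shares themselves, and their part in the values over all neurons, were not tested. When 162 excitatory, 59 interneuron and 61 ganglionic records were drawn from each mouse, the median of 7 tested channel genes was 0.18, with 2 lower and 5 higher. With the wider filter on the same draw it was -0.04 over 46 genes, with 25 lower and 21 higher. The shares of all genes lower or higher in this draw are not given here, so these counts have no background.

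**Figure D4:**
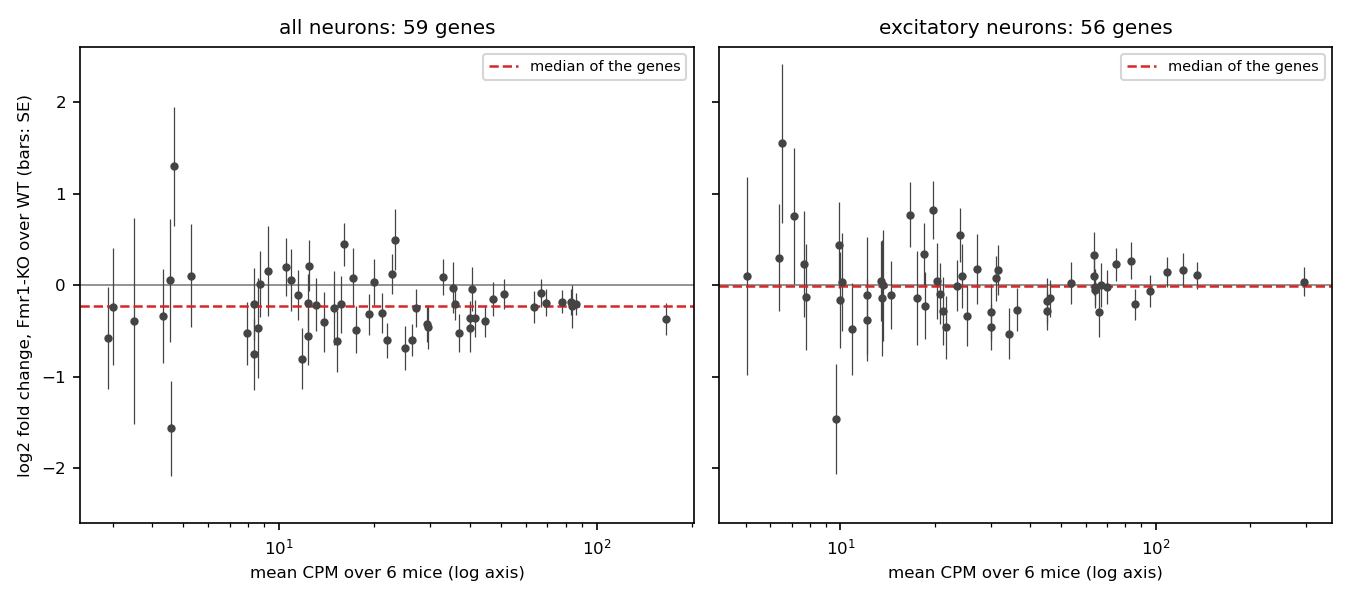
Log2 fold change of each channel gene, *Fmr1*-KO over WT, with its SE, against its mean CPM over 6 mice on a log axis, for all neurons (59 genes, left) and excitatory neurons (56 genes, right), tested with the wider filter. The dashed median lies at -0.23 in all neurons and at -0.0038 in excitatory neurons.

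Genes known as targets or partners of FMRP showed no difference past the threshold in excitatory neurons. *Kcnmb4* was at 99.1, 144 and 133 CPM in the WT and at 70.1, 103 and 185 CPM in the *Fmr1*-KO mice, *Kcnd2* at 113, 90.8 and 82.2 against 86.7, 119.8 and 85.1 CPM, and *Kcnt1* at 34.9, 21.98 and 28.1 against 36.9, 39.6 and 25.7 CPM. All 3 overlapped between the genotypes. With the wider filter *Kcnd2* differed by -0.06 ± 0.17 (SE), *Kcnt1* by 0.07 ± 0.25 and *Kcna1* by 0.18 ± 0.38. In Astrocytes_1, also with the wider filter, *Kcnmb4* was at 33.3, 29.1 and 30.7 CPM in the WT and at 40.9, 38.4 and 40.7 CPM in the *Fmr1*-KO mice, without overlap (0.37 ± 0.12, SE, edgeR unadjusted p = 0.0135, adjusted p = 0.98). *Kcnd2* there was at 35.3, 27.2 and 23.0 against 49.5, 43.5 and 31.7 CPM, with overlap (0.38 ± 0.13, SE, edgeR unadjusted p = 0.0127, adjusted p = 0.98). Neither passed the adjustment, and 4.31% of all genes tested there had an unadjusted p under 0.05.

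Under the 15% filter, astrocytes held the 4 genes with an unadjusted p under 0.05 and the same sign within both bead versions, and none of them passed the adjustment. They included *Kcnk2*, *Kcnj16* and *Kcna2*. *Kcnk2* in Astrocytes_2 was at 200.5, 252 and 179.9 CPM in the WT and at 307, 299.7 and 311 CPM in the *Fmr1*-KO mice. All *Fmr1*-KO mice lay above all WT mice, with a log2 difference of 0.55 ± 0.16 (SE, edgeR unadjusted p = 0.00292, adjusted p = 0.79), and of 0.60 within version 2 and 0.53 within version 3.8. In the larger cluster Astrocytes_1 the same gene differed by 0.04 ± 0.08. With the wider filter, *Kcnk2* in ganglionic cells was at 29.1, 8.23 and 11.9 CPM in WT and 55.2, 38.1 and 46.3 CPM in *Fmr1*-KO mice. These did not overlap (edgeR unadjusted p = 0.00663, adjusted p = 0.93), with 0.67 within version 2 and 2.15 within version 3.8. Of all genes there 5.08% had an unadjusted p under 0.05. With that filter *Kcnk2* differed by 0.39 in oligodendrocytes, 0.11 in OPC_1 cells, -0.05 in interneurons, -0.21 in excitatory neurons and -0.18 in neurons. *Kcnj16* in Astrocytes_1 was lower, at 88.5, 100.4 and 101 CPM in the WT and 69.8, 81.9 and 76.7 CPM in the *Fmr1*-KO mice, without overlap (-0.30 ± 0.10, edgeR unadjusted p = 0.0159, adjusted p = 0.92). Its partner *Kcnj10* differed by 0.06 ± 0.13, with 0.33 within version 2 and -0.22 within version 3.8.

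*Kcna2* in Astrocytes_1 was at 109, 259 and 249 CPM in the WT and at 134.5, 127.5 and 327 CPM in the *Fmr1*-KO mice. The groups overlapped, but within each bead version every *Fmr1*-KO mouse was above every WT mouse, with a difference of 0.33 ± 0.08 (SE, edgeR unadjusted p = 0.0021, adjusted p = 0.92). The replicate block in place of the bead term gave -0.09 and no such term gave -0.06, so this value rests on the bead term. Of all tested genes 4.65% in Astrocytes_1 and 4.26% in Astrocytes_2 had an unadjusted p under 0.05, against 2 of 9 and 2 of 7 channel genes. *Kcnn2* in Astrocytes_1 stood at 46.2, 84.6 and 167 CPM in the WT and 47.8, 43.5 and 56.8 CPM in the *Fmr1*-KO mice, a difference of -0.65 ± 0.33. It was the only channel gene called under any alternative, in a fit with no filter on low counts (-0.64 ± 0.14, edgeR adjusted p = 0.00147), where the fold was alike and the SE smaller. Without WT 3 its difference was -0.27, and without *Fmr1*-KO 3 it was 6.41e-04.

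**Figure D5:**
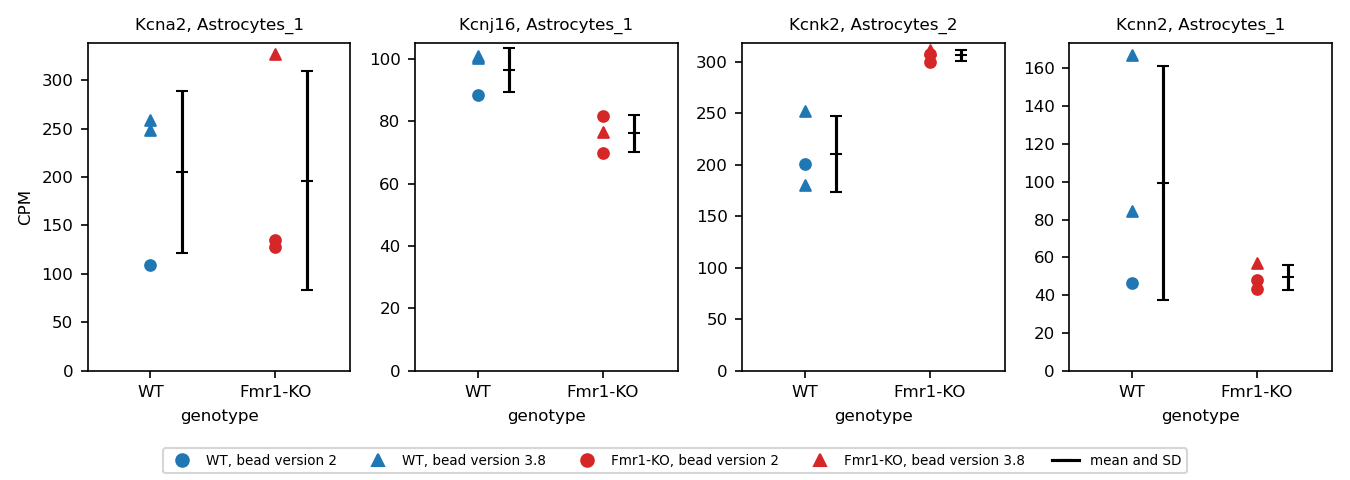
CPM in each mouse of 4 gene and subtype pairs in astrocytes, by genotype, with symbol for bead version and the mean ± SD of each genotype beside the points. *Kcnk2* in Astrocytes_2 and *Kcnj16* in Astrocytes_1 do not overlap between the genotypes, *Kcna2* separates first by bead version, and *Kcnn2* has 1 WT mouse at 167 CPM.

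In the remaining types no tested channel gene passed the adjusted threshold. In pericytes *Kcna2* had an unadjusted p of 0.00344 and an adjusted p of 0.996 (edgeR), but it was at 0 UMIs in all 3 version 2 mice, and at 127, 73.4 and 225 CPM in WT 2, WT 3 and *Fmr1*-KO 3. Of all genes tested in pericytes 3.29% had an unadjusted p under 0.05. *Kcnj8* in pericytes differed by -0.04 ± 0.15 (SE), *Kcnj2* in endothelial cells by -0.18 ± 0.18 and *Kcnk6* in microglia by 0.16 ± 0.25. *Kcnd2* and *Kcnip3* in OPC_1 cells differed by 0.02 ± 0.14 and -0.04 ± 0.11. With the wider filter, *Kcnip2* in interneurons had the lowest unadjusted p of all channel genes, where 4.34% of all genes there were under 0.05. It was chosen after its values were seen: 11.3, 87.1 and 125 CPM in the WT and 5.46, 3.83 and 36.1 CPM in the *Fmr1*-KO mice. The difference was -1.49 ± 0.37 (edgeR unadjusted p = 6.18e-04, adjusted p = 0.46), with -1.20 within version 2 and -1.54 within version 3.8. The genotypes overlapped, and every version 2 mouse was below every version 3.8 mouse. No version 2 mouse was above 11.3 CPM, so the value within version 2 rests on low counts.

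The genotype effect was also compared directly between cell types, with each mouse a block in the fit. Bead version by cell type was not a term in this fit, so these differences are not adjusted for it. Between interneurons and excitatory neurons 12 channel genes were tested, between Astrocytes_1 and neurons 14, and between pericytes and endothelial cells 5. None was called by edgeR at an FDR under 0.01, and of all genes tested 0% were called in each pair, and 1 had an unadjusted p under 0.05. This was *Kcnq5*, whose effect was lower in interneurons than in excitatory neurons by -1.26 ± 0.48 (SE, edgeR unadjusted p = 0.0227, adjusted p = 0.999). The shares of all genes at an unadjusted p under 0.05 were 2.51%, 6.33% and 2.78%. With a term for bead version by cell type added, 0 channel genes were called in each pair. Of all 4190 genes between interneurons and excitatory neurons 1 was called there.

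Other genes of potassium handling were also mostly lower over all neurons. Of 29 such genes (channel partners, the sodium-potassium pump and the cotransporters), 12 were tested in neurons, 11 were lower and 5 had an unadjusted p under 0.05, all lower, with a median of -0.28, where 49.9% of all tested genes were lower and 16.4% had such a p. They included the pump subunits *Atp1b1* (-0.45 ± 0.10, SE) and *Atp1b2* (-0.40 ± 0.13), the Kv4 partner *Dpp6* (-0.44 ± 0.14) and *Slc12a5*, the neuronal chloride extruder KCC2 (-0.41 ± 0.13), with a lowest edgeR adjusted p of 0.12. In excitatory neurons 14 were tested, 9 lower, and 1, *Atp1b2*, had an unadjusted p under 0.05, where 48.9% of all tested genes were lower and 3.48% had such a p. Of the 43 sodium, calcium and HCN channel genes, 12 were tested in neurons and 11 were lower, with a median of -0.29 and 5 at an unadjusted p under 0.05. In excitatory neurons 21 were tested, 10 lower and 11 higher, with a median of 0.02. In the equal draw of subtypes 10 of 13 other potassium handling genes were lower (median -0.15), with 2 at an unadjusted p under 0.05, both lower, and 5 of the 6 pump genes were lower with a median of -0.24. Of the sodium, calcium and HCN channel genes 6 of 12 were lower there, and their median was -0.01. For the equal draw the shares of all genes lower or at such a p are not given here. Its counts therefore have no background.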

How the data were processed

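InDrop profiles came from the cortex of 3 WT and 3 *Fmr1*-KO pups. The authors aligned reads to mm10 with TopHat2 2.0.14, counted UMIs per gene with ESAT and deposited raw UMI counts, with the mouse, type and subtype of each cell. Subtypes are the authors' clusters, and the deposited size factors were not used. Sums per mouse and type, for mice with at least 10 records of it, were tested with edgeR 4.0.16 (TMM, quasi-likelihood, bead version as a term, R 4.3.3) and adjusted with Benjamini-Hochberg over all genes with a UMI in 15% of the cells. Fits were tested on simulated data. Genes named are those at 50 CPM in a subtype, those with an unadjusted p under 0.05 and 1 sign within both bead versions (up to 5 per type), and a fixed list of FMRP partners and glial channels. Within-version values are log2 ratios of mean CPM plus 0.5. The channel genes and lists were chosen with earlier results of these data known. Alternatives were no bead term, a replicate block, no TMM, other filters, DESeq2 1.42.0, cells thinned to 700 UMIs, FDR under 0.05 with no fold limit, each mouse left out, an equal mix of neuron subtypes and, chosen after seeing the data, 1 record per barcode and mouse and the equal mix with filterByExpr. The comparison between cell types was also run with a term for bead version by cell type. Results of some genes are not reported here. Precision follows from 8070039 to 20677233 UMIs per mouse.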

Additional observations from a re-analysis of the deposited data

Results flagged for a closer look

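The 37 genes at 50 CPM were screened at their highest subtype for 1 mouse far from the others, with 5 or 6 mice each, and 4 were found. Chance flags about 1 in 20 such groups. *Kcnn2* in Astrocytes_1 was at 167 CPM in WT 3, with the other mice at 43.5 to 84.6 CPM. *Kcne4* in pericytes was at 251 CPM in WT 3, with the others at 118 to 148 CPM. *Kcnk13* in microglia was at 103 CPM in *Fmr1*-KO 2, with the others at 40.8 to 58.3 CPM. *Kcnh3* in excitatory neurons was at 46.1 CPM in *Fmr1*-KO 1, with the others at 63.4 to 71.2 CPM.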

How the results depend on the processing

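The count of called channel genes was 0 in each of the 11 types under the alternatives run, except that without a filter on low counts 1 gene, *Kcnn2*, was called in Astrocytes_1. Interaction counts were 0 under the alternatives run. The median log2 fold change of the channel genes in neurons was -0.17 and became 0.18 in the equal mix of subtypes and -0.0395 in the equal mix with filterByExpr. In excitatory neurons it was 0.12 and became -0.0773 with no filter. Leaving out a mouse gave -0.25 to -0.09 in neurons, -0.0626 to 0.13 in excitatory neurons (-0.0626 without *Fmr1*-KO 2), -0.03 to 0.05 in Astrocytes_1, -0.28 to -0.09 in Astrocytes_2 and -0.0789 to 0.0833 in OPC_1 cells (0.0833 without WT 1). In Astrocytes_1 the median of 0.01 became -0.13 without the bead term and -0.14 with the replicate block, and in OPC_1 cells the -0.04 became 0.0837 in thinned cells. *Kcna2* in Astrocytes_1 turned from 0.33 to -0.0632 without the bead term and -0.0940 with the replicate block. Replicate numbers do not pair the mice: the deviations of the mice numbered 2, from different bead versions, correlated at -0.50 in neurons, against 0.78 and 0.80 for numbers 1 and 3, and the replicate block changed no other call. The highest subtype was kept for 26 of 37 genes with at least 30 records (CR and OPC_2 then have no value), 31 with thinned cells and 36 with 1 record per barcode. The thinned cells left no channel gene to test in neurons, excitatory neurons, interneurons, ganglionic cells, endothelial cells and microglia. Otherwise the cause of a moved value was not tested. With 3 mice per genotype, small changes and genes under the 15% filter lie beyond the depth. With the wider filter even the loss of *Fmr1* was called only in Astrocytes_1 and OPC_1 cells, and in no other type or group.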
